A study of Mus musculus with 12 samples.

Results

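FGF21 and GDF15 are the pair of stress hormones, or mitokines, that cells secrete when their mitochondria fail. They were examined together with beta-Klotho (Klb) and the 4 FGF receptor genes Fgfr1, Fgfr2, Fgfr3 and Fgfr4. What was measured is H3K27ac, an acetyl mark on histone H3 that is found at promoters and enhancers in use, by chromatin immunoprecipitation and sequencing of regenerating mouse liver. Members were all regions of the deposited table that carry 1 of these 7 gene names, which gave 27 of 36387 regions under 6 of the 7 names. By name, 2 were of Fgf21, 3 of Gdf15, 3 of Klb, 6 of Fgfr2, 6 of Fgfr3 and 7 of Fgfr4. No region carried the name of Fgfr1, and none overlapped its RefSeq gene body, so Fgfr1 was not analysed here.

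All mice carried a floxed Cox10 allele and were given an adeno-associated virus, AAV8-GFP or AAV8-Cre. After 4 weeks they had 70% of the liver removed, and day 2 of regrowth is the only time point. The labels name the groups wild-type and Cox10-/-, with 3 H3K27ac libraries each, and the design text gives AAV8-Cre as what recombines the floxed allele in the liver. Cox10 encodes an enzyme of heme A synthesis that cytochrome c oxidase needs. The promoter of the Cre vector, the strain, sex and age of the mice and the share of hepatocytes that kept Cox10 are not given in the labels, nor whether each library is 1 animal, so p-values measure only the spread between these libraries, which may be technical.

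FGF21 is made mainly by hepatocytes and reaches its target cells through an FGF receptor bound to the co-receptor beta-Klotho. In hepatocytes beta-Klotho pairs with FGFR4, the receptor for FGF15 from the gut, which lowers bile acid synthesis. GDF15, a distant member of the TGF-beta family, acts on GFRAL with its partner RET in the hindbrain. Both hormone genes are known targets of the ATF4 branch of the stress response, and Fgf21 is also a target of the fasting receptor PPARalpha.

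The promoter sequences of 4 members are shown because the results below compare acetylation around the start sites of the 2 hormone genes with that around the start sites of the receptor genes. Each is the run of 250 bases upstream of the outermost start site in the RefSeq promoter table (GRCm38.p6, the assembly also called mm10), 5′ to 3′ on the strand of the gene. The RefSeq gene record of Gdf15 begins slightly farther out, at 70632470, so the window bases nearest the start site used here, 70632456, lie inside that record. Capitals mark matches, on either strand, to the C/EBP-ATF element TGATGNAA bound by ATF4, to the E-box CACGTG and to the nuclear receptor element AGGTCA, which do not overlap here.
Fgf21, chr7:45615491-45615740, minus strand: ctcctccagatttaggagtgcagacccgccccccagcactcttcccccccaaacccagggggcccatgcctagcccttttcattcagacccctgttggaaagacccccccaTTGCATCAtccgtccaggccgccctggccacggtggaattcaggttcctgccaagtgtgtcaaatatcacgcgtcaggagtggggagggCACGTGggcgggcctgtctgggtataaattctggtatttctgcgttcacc
Gdf15, chr8:70632457-70632706, minus strand: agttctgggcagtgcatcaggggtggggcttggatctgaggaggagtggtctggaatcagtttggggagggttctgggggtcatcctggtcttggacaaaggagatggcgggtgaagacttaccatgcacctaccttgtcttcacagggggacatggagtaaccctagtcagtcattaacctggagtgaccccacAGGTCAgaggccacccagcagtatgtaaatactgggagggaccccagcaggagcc
Klb, chr5:65348161-65348410, plus strand: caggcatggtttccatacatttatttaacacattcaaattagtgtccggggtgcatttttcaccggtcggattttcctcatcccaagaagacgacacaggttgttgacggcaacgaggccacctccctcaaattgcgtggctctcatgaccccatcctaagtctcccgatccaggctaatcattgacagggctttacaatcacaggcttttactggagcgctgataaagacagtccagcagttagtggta
Fgfr4, chr13:55152568-55152817, plus strand: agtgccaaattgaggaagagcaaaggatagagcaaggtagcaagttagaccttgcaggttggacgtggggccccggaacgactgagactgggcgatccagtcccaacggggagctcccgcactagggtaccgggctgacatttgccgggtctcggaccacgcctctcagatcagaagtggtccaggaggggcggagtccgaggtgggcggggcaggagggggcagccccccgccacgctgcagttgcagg
Fgf21 had 1 match to the C/EBP-ATF element, from 139 to 132 bases upstream of the start, and 1 E-box, from 50 to 45 bases upstream. Gdf15 had 1 nuclear receptor element, from 55 to 50 bases upstream, within an acetylated region. The windows of Klb, Fgfr4 and Fgfr3 (the last not shown) had no match to these letters. No base of the Klb and Fgfr3 windows lay inside an acetylated region of the gene, while all 250 of the Fgfr4 window did. Acetylated sequence outside the windows was not searched. Among 32536 promoter windows of the same length, 3.4% held the C/EBP-ATF element, 6.04% the E-box and 14% the nuclear receptor element. The C/EBP-ATF match of Fgf21 lay at the inner edge of an acetylated region (region 2 below), and the E-box lay between both Fgf21 regions. A match is a description of letters and not evidence of binding.

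The values used are normalised reads, that is reads in a region divided by a size factor of the library. The regions held 3897454 to 4187377 reads per library in wild type and 3282878 to 3385453 in Cox10-/-, and the sum of normalised reads was lower in Cox10-/- (2675320 ± 167099 against 5398380 ± 92960, SD, n = 3). Of all regions 87.2% were lower and 4.46% higher (limma, adjusted p under 0.05), and the median region had a log2 fold change of -1.04. Values are also given relative to the median region of each library, called the centred scale below. On that scale 32.4% of all regions were lower and 33.6% higher. The targeted gene Cox10 carried 1 region, in an intron, with 14.6, 17.8 and 12.8 normalised reads in wild type and 60.3, 46 and 65.9 in Cox10-/-, which does not test the deletion. Promoters of all 6 hepatocyte markers were acetylated, and all 6 were lower, their sum falling from a range of 4158 to 4319 to one of 1208 to 1395. Of other cell types, no promoter region was listed for 7 stellate, 6 endothelial and 6 blood markers, 1 of 5 cholangiocyte markers had one (Sox9, 52.0 to 67.7 and 43.9 to 62.1), and 2 of 6 macrophage markers did (Cd68 and Cd14, sum 172.9 to 193.1 and 317.4 to 381.7, with 1 of the 2 called higher and the resident marker Clec4f without one). The part of cell composition in the results below was not tested, and in whole liver fewer cells of a type and less acetylation per cell cannot be told apart.

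The name and the place of a region disagreed for Fgfr2. All 6 regions named Fgfr2 lay outside the RefSeq gene, on chromosome 7, at 254 to 2547 kb from its body. The protein-coding genes nearest to them were Ate1, Tacc2, Btbd16, Plekha1, 2310057M21Rik and Fam53b, and 2 of the regions were listed as promoters within 1 kb of a start site, next to 2310057M21Rik and Fam53b. No region overlapped the Fgfr2 gene body. Counts are therefore given with and without these 6.

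Among the 27 member regions 21 were lower and 5 higher in Cox10-/-, and 1 was not called. Without Fgfr2 there were 18 lower and 2 higher of 21. At 90.9% of all regions the values of the groups did not overlap, and at 24 of the 27 members they did not. The hormone genes and the receptor genes stood apart. The 5 regions of Fgf21 and Gdf15 had a median log2 fold change of -0.22, with 2 lower and 2 higher, whereas all 16 regions of Klb, Fgfr3 and Fgfr4 were lower, with a median of -2.30. For comparison, the share of regions called lower was 92.3% at promoters (within 1 kb of a start site in the deposited annotation) and 83.2% elsewhere, and the medians were -0.87 and -1.28. The share called higher was 1.26% at promoters and 6.96% elsewhere. On the centred scale 5 of 5 hormone regions were higher, and of the 16 receptor regions 10 were lower and 0 higher. The shares of all regions called on that scale were 18.9% lower and 42.2% higher at promoters, and 43.1% lower and 26.9% higher elsewhere.

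**Figure D1:**
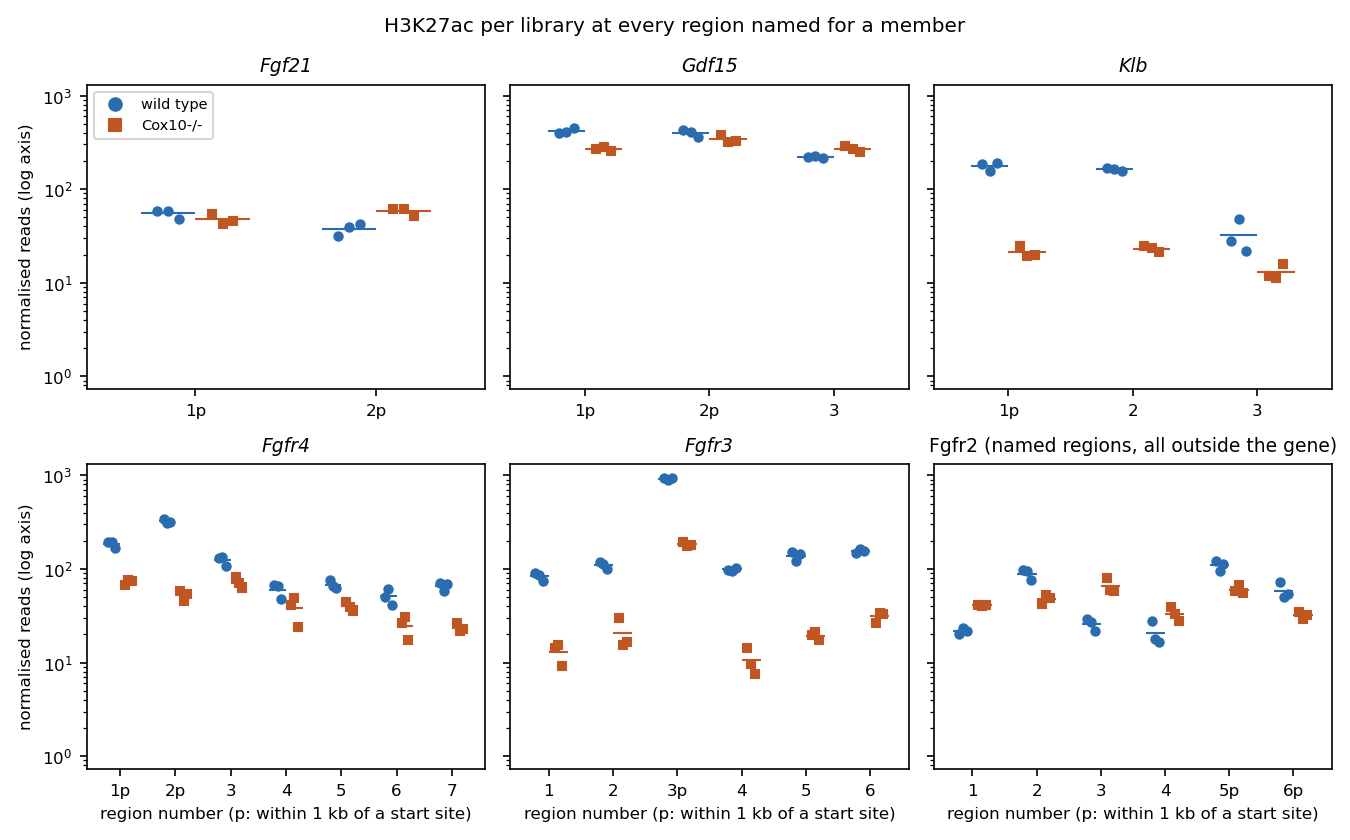
Normalised reads (log axis) at every region named for a member, by region number in order of genome coordinate; blue circles are the 3 wild-type libraries, orange squares the 3 Cox10-/- libraries, lines the group means, and p marks promoter regions. Klb, Fgfr4 and Fgfr3 fell at all 16 regions (at 10 on the centred scale), while Fgf21 region 2 and Gdf15 region 3 were higher in Cox10-/- on both scales.

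On the deposited scale Fgf21 rose upstream of its start site and showed no detectable change inside the gene, and on the centred scale both its regions rose. Its region 1 lay inside the gene, 43 to 366 bases downstream of the start site (chromosome 7, 45615124 to 45615447). It held 58.5, 58.9 and 48.6 normalised reads in wild type and 54.4, 42.0 and 46.2 in Cox10-/-. The groups overlapped, and the log2 fold change of -0.22 (SE 0.18, limma adjusted p = 0.24) did not pass the threshold. Region 2 lay 127 to 723 bases upstream of the start site (45615617 to 45616213). It held 31.9, 39.7 and 42.2 normalised reads in wild type and 62.0, 61.3 and 51.5 in Cox10-/-, so that every Cox10-/- library was above every wild-type library. It rose 1.53-fold (log2 0.61, SE 0.19, limma adjusted p = 0.0017), and in the authors' deposited table its adjusted p was 0.022. Over both regions the sum was 93.3 ± 4.62 in wild type and 105.8 ± 9.59 in Cox10-/- (SD, n = 3), with 68 to 137 reads per library before normalisation, and the groups overlapped (exact permutation test, two-sided, p = 0.2). The centred log2 fold changes were 0.83 and 1.66.

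Gdf15 fell at regions 1 and 2, which overlap the gene, on the deposited scale and rose there on the centred one. Its region 3, farther upstream, rose on both. Region 1, over the later part of the gene at 846 to 2475 bases downstream of the start site (chromosome 8, 70629981 to 70631610), held 395, 404 and 450 normalised reads in wild type and 271, 284 and 258 in Cox10-/-. The groups did not overlap, and region 1 fell 1.53-fold (log2 -0.62, SE 0.090, limma adjusted p = 1.3e-10). Region 2 spans the start site, from 1655 bases upstream to 637 bases downstream (70631819 to 70634111). It held 427, 407 and 363 and then 380, 318 and 327, and the groups overlapped. Its log2 fold change was -0.22 (SE 0.088, adjusted p = 0.013), a call that was lost without wild-type replicate 1 (adjusted p = 0.0969), wild-type replicate 2 (0.0535) or Cox10-/- replicate 2 (0.102). Region 3, at 1.91 to 3.53 kb upstream (70634368 to 70635986), held 222, 229 and 216 in wild type and 291, 268 and 251 in Cox10-/-. All 3 Cox10-/- libraries were above wild type there, and region 3 rose 1.21-fold (log2 0.28, SE 0.098, adjusted p = 0.0060). Summed over its 3 regions, Gdf15 had 1038 ± 7.89 normalised reads in wild type and 883 ± 54.5 in Cox10-/- (SD, n = 3). This was a change of -14.9% (exact permutation test, two-sided, p = 0.1, the smallest that 3 against 3 libraries allow). The centred log2 fold changes of regions 1 to 3 were 0.44, 0.83 and 1.33.

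In both hormone genes the region farther upstream changed more in the upward direction than its downstream neighbour. The ratio of neighbouring regions within a library does not depend on the scale, apart from the pseudocount of 1, so it was compared between the groups for every pair of adjacent regions that share a gene name. In Fgf21 the log2 ratio of the upstream over the downstream region was -0.85, -0.56 and -0.20 in wild type and 0.19, 0.54 and 0.15 in Cox10-/-. The upstream region was thus the lower one in every wild-type library and the higher one in every Cox10-/- library, a difference of 0.83 (SE 0.26, limma adjusted p = 0.013). This call was lost without wild-type replicate 1 (adjusted p = 0.0756) or Cox10-/- replicate 2 (0.0793). In Gdf15 region 3 gained on region 2 by 0.50 (SE 0.10, adjusted p = 0.00020), and region 2 gained on region 1 by 0.39 (SE 0.10, adjusted p = 0.0035, 0.0652 without wild-type replicate 3). Such differences were common. Of all 25147 pairs 29.7% passed, and of the 16 member pairs without Fgfr2 7 did. The direction was not particular to the hormone genes. Fgfr4 region 1 gained on region 2 by 1.28, and Fgfr3 region 3 on region 4 by 0.83. The called pairs of Fgfr4 regions 2 and 3 and of Klb regions 2 and 3 went the other way, at -1.81 and -1.58.

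**Figure D2:**
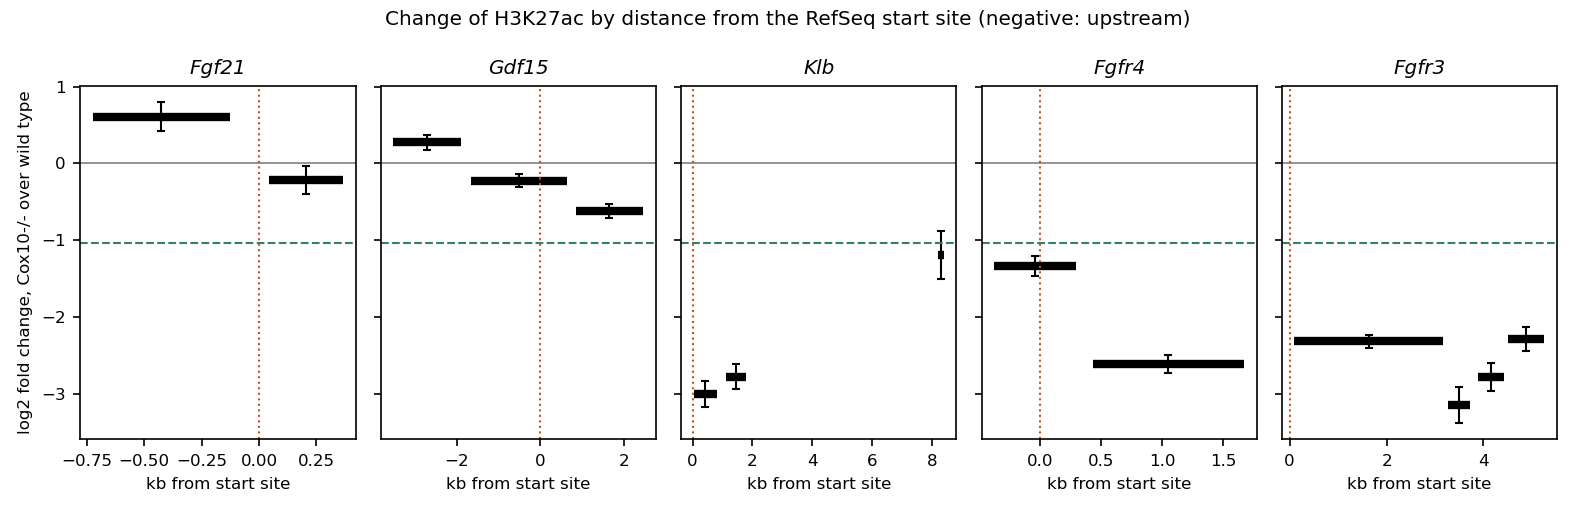
Log2 fold change (Cox10-/- over wild type, limma) of each region against its distance from the start site in the RefSeq promoter table in kb, negative upstream; bars span the region, error bars are the SE, the dashed line is the median of all regions (-1.04) and the dotted line the start site. Distal regions of Fgfr3 and Fgfr4 lie outside the window. The hormone regions lie above the dashed line and step up toward the upstream side.

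Klb, the co-receptor shared by FGF21 and FGF15, had the deepest promoter fall of the members. Region 1, from 35 to 820 bases downstream of the start site (chromosome 5, 65348446 to 65349231), held 186, 156 and 189 normalised reads in wild type and 24.6, 19.4 and 19.7 in Cox10-/-. The highest Cox10-/- library had far fewer reads than the lowest wild-type library, and region 1 fell 8.03-fold (log2 -3.01, SE 0.17, limma adjusted p = 4.4e-44). Region 2, in the following part of the gene at 1104 to 1786 bases downstream, fell 6.86-fold (164 ± 6.07 to 23.1 ± 1.74, SD, n = 3). A weak region in intron 1 of 4, with 32.5 ± 13.7 and 13.0 ± 2.51 normalised reads, was 2.29-fold lower (log2 -1.19, SE 0.31), and the log2 ratio of region 2 over it fell by 1.58 (SE 0.32, limma adjusted p = 0.00015). On the centred scale the intron region was at -0.14 (adjusted p = 0.70), while regions 1 and 2 were at -1.95 and -1.73 (log2) and called lower. Over the gene, 374 ± 8.24 normalised reads became 57.4 ± 3.59, a change of -84.6% (exact permutation test, two-sided, p = 0.1).

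Fgfr4, the main FGF receptor of hepatocytes, fell most just inside the gene. Region 1 covers the start site (chromosome 13, 55152443 to 55153109) and held 196, 194 and 167 normalised reads in wild type and 68.0, 76.7 and 74.2 in Cox10-/-, a 2.52-fold fall (log2 -1.33, SE 0.13, limma adjusted p = 1.5e-20). Region 2, from 431 to 1669 bases downstream (55153249 to 55154487), held 343, 307 and 321 and then 57.8, 45.2 and 53.8, a 6.12-fold fall (log2 -2.61, SE 0.12, adjusted p = 7.5e-54). In wild type region 2 was the higher of the pair in each library, and in Cox10-/- it was the lower one in each library. This difference between neighbours was 1.28 (log2, SE 0.17, limma adjusted p = 1.9e-07). On the centred scale region 1 was at only -0.28 (log2, limma adjusted p = 0.027) and region 2 at -1.56, both called lower. The 5 regions named Fgfr4 that lie 13.5 to 18.7 kb beyond the end of the gene were 1.61-fold to 2.73-fold lower. The log2 ratio of region 2 over the nearest of them fell by 1.81 (SE 0.18, limma adjusted p = 2.9e-10), and on the centred scale none of the 5 was called. The least of them, region 4, was not called without Cox10-/- replicate 3 (adjusted p = 0.0506). These distal regions carry the name of Fgfr4 by the deposited annotation, and which gene they act on was not tested.

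Fgfr3, another receptor tyrosine kinase for FGFs, fell at every one of its 6 regions. Its main region, a broad one of 3067 bases from 98 to 3164 bases downstream of the start site (chromosome 5, 33721822 to 33724888), held 930, 885 and 933 normalised reads in wild type and 192, 177 and 180 in Cox10-/-. It fell 4.99-fold (log2 -2.32, SE 0.085, limma adjusted p = 2.5e-70), with no overlap between the groups. The 3 regions that follow within the gene fell 8.88-fold, 6.88-fold and 4.89-fold. Of these, region 4 went from 98.8 ± 4.52 to 10.6 ± 3.52 normalised reads (SD, n = 3), the deepest change of all 27 members (log2 -3.15, SE 0.23), and it fell further than the main region by 0.83 (SE 0.18, adjusted p = 0.00043). Its rank among the members depends on the pseudocount. With a pseudocount of 5 it was at -2.76 and Klb region 1 was deeper, at -2.80 (log2). Another pair of regions, 14.8 to 15.9 kb upstream, fell 6.18-fold and 5.40-fold. All 6 regions were called lower on the centred scale too, from -1.24 to -2.10 (log2). Over all 6 regions, with the pair outside the gene, 1504 ± 37.6 normalised reads became 277 ± 17.1.

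The regions named Fgfr2 did not share a direction. Region 3, listed in intron 2 of 6 of a transcript and 564 kb from the RefSeq gene, held 29.3, 27.4 and 21.7 normalised reads in wild type and 79.9, 59.7 and 57.6 in Cox10-/-, a 2.45-fold rise (log2 1.29, SE 0.20, limma adjusted p = 1.9e-09). Region 1 rose 1.86-fold and region 4 rose 1.61-fold. The call of region 4 (adjusted p = 0.012) was lost without Cox10-/- replicate 1 (0.0813) and in the authors' deposited table (0.0608). Region 2, which overlaps Tacc2, and regions 5 and 6, beside 2310057M21Rik and Fam53b, fell 1.83-fold, 1.81-fold and 1.79-fold. On the centred scale none of the 3 was called.

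The order of the members differed between the groups. Levels were compared per kb of region at 1 promoter region of each gene, the one with the most normalised reads over the 6 libraries, leaving out Fgfr2. In wild type the order was Fgfr3 with 299 ± 8.81 normalised reads per kb, Fgfr4 with 261 ± 14.8, Klb with 225 ± 23.3, Gdf15 with 174 ± 14.3 and Fgf21 with 171 ± 18.1 (SD, n = 3). Fgfr4 and Klb lay within their joint spread, and so did Gdf15 and Fgf21. In Cox10-/- Gdf15 and Fgf21 led with 149 ± 14.6 and 147 ± 19.5 normalised reads per kb, again within their spread, and Fgfr3, Fgfr4 and Klb followed with 59.6 ± 2.66, 42.2 ± 5.19 and 27.02 ± 3.76. The choice of region bears on the order, since Gdf15 region 1 held 255 ± 18.0 and 166 ± 8.13 normalised reads per kb in wild type and Cox10-/-, Fgfr4 region 1 held 279 ± 23.9 and 109 ± 6.72, and Fgf21 region 2 held 63.6 ± 8.96 and 97.7 ± 9.85. Among all 15980 promoter regions of the same library, ranked per kb, Gdf15 lay between the percentiles 6.18 and 10.6 in wild type and between 45.1 and 63.1 in Cox10-/-. Fgf21 lay between 4.98 and 9.72 and then between 38.2 and 64.7. Klb went the other way, from between 14.9 and 36.5 to between 0.394 and 0.782. These places also depend on the region chosen, and for Gdf15 they are of region 2 alone. Gdf15 region 1 was not ranked. Its 255 normalised reads per kb in wild type were close to the 261 of Fgfr4, which lay between the percentiles 41.1 and 52.5 there.

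**Figure D3:**
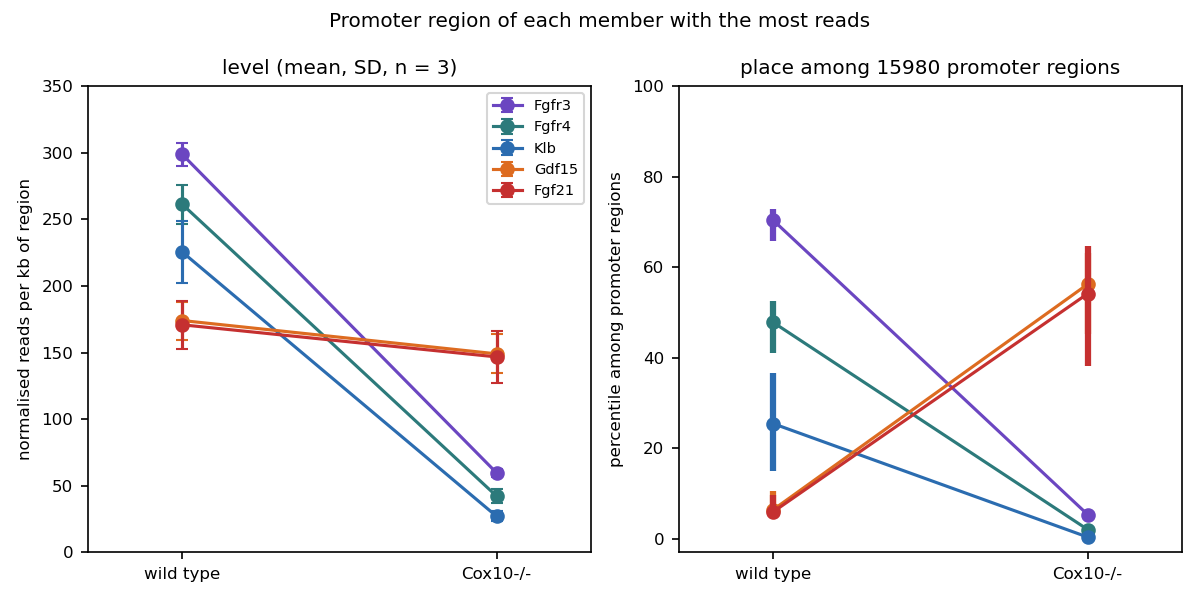
Left, normalised reads per kb at the promoter region of each member with the most reads (mean and SD of 3 libraries); right, the place of the same region among 15980 promoter regions ranked per kb, with bars from the lowest to the highest library and points for the group mean. The lines cross: in Cox10-/- Gdf15 and Fgf21 hold 149 and 147 reads per kb, and Fgfr3, Fgfr4 and Klb 59.6 or fewer.

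The log2 ratio of a hormone promoter over a receptor promoter in the same library does not depend, apart from the pseudocount of 1, on how libraries are scaled. For Gdf15 over Klb it was 0.94 to 1.38 in wild type and 3.89 to 3.99 in Cox10-/-. For Fgf21 over Klb it was -1.94 to -1.39 and then 1.08 to 1.19, so that Fgf21 had fewer reads than Klb in every wild-type library and more in every Cox10-/- library. The 6 ratios of Fgf21 and Gdf15 over Klb, Fgfr4 and Fgfr3 were each higher in Cox10-/-, by 2.10 to 2.79 (log2), without overlap between groups. The exact permutation test, two-sided, gave p = 0.1 for each, also after Benjamini-Hochberg adjustment over the 6, which is the smallest p that 3 against 3 libraries allow and does not pass 0.05. The ratios are of 1 promoter region a gene, and their size depends on that choice. Gdf15 region 2 and Fgfr4 region 2, which were used, had log2 fold changes of -0.22 and -2.61. Gdf15 region 1 and Fgfr4 region 1, also promoter regions, were at -0.62 and -1.33, so their ratio shifted less.

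Of 7036 other genes with a promoter region at or above the median signal, the one whose profile over the 6 libraries was closest to the highest promoter region of Fgf21 was Gdf15, at a Euclidean distance of 0.117 (log2 scale, each gene relative to its wild-type mean) against a median distance of 1.12. Hif1a, a hypoxia factor on the list of regulators below, and Rps3a1, a ribosomal protein gene, followed at 0.15 and 0.164. For Gdf15 the closest genes among those at or above the median signal, which Fgf21 is not, were Rps3a1, Cyth3 and Hif1a, at 0.116, 0.121 and 0.129. The distance mostly reflects a like change between 2 groups and is given as a description. It also depends on the regions chosen, which were Fgf21 region 1 and Gdf15 region 2, both at a log2 fold change of -0.22. Fgf21 region 2 and Gdf15 region 1, also promoter regions, were at 0.61 and -0.62 and were not compared.

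Other genes of the pathway, on lists of the main roles, were likewise read at the highest promoter region of each gene, where 93.8% of 9663 genes were lower and 0.807% higher (median log2 fold change -0.82), and where 15.4% were lower and 49.2% higher on the centred scale. Of the 21 other FGF ligands on the list, 1 had a region, Fgf20, which was 1.94-fold lower (0.10, log2, on the centred scale). For Gfral and Ret, the receptor pair of GDF15, no region carried the name. Among co-receptors and partners 7 of 9 genes were lower and 0 higher (median -1.22), with Sdc4, Sdc1 and Cdh2, which encode syndecans and N-cadherin, 2.33-fold, 2.06-fold and 2.48-fold lower. After centring, 4 of these 9 were lower and 2 higher. Of the signal relay between receptor and ERK or AKT, 21 of 21 genes were lower (median -0.80). Examples are Pik3r1, a regulatory subunit of PI3-kinase, 2.06-fold lower, and Sos1, an activator of RAS, 2.15-fold lower. After centring, 13 of these 21 were higher and 0 lower.

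Of genes induced by ERK or that restrain it, 10 of 14 were lower and 0 higher (median -0.53). Dusp6, an ERK phosphatase, was 1.78-fold lower, Ier2 1.52-fold and Egr1, both immediate early genes, 2.09-fold. Centred, 12 of these 14 were higher and 0 lower. Of the regulators of Fgf21 and Gdf15, 22 of 23 were lower and 0 higher (median -1.13). Srebf1, the lipogenic factor, was 5.04-fold lower, Rxra, the partner of PPARalpha, 2.76-fold and Ppara 2.98-fold. With centring, 11 of these 23 were lower and 9 higher. No region carried the name of Atf4 or Cebpb, which were not analysed here. Genes that FGF15 or FGF21 are known to act on in hepatocytes were lower in 10 of 11 cases (median -1.35), with the gluconeogenic genes Pck1 7.02-fold and G6pc 4.30-fold lower. Of these 11, on the centred scale, 7 were lower and 2 higher, namely Igfbp1 at 0.94 and Cpt1a at 0.33 (log2). Igfbp1, at -0.11 on the deposited scale, was the gene not called there.

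**Figure D4:**
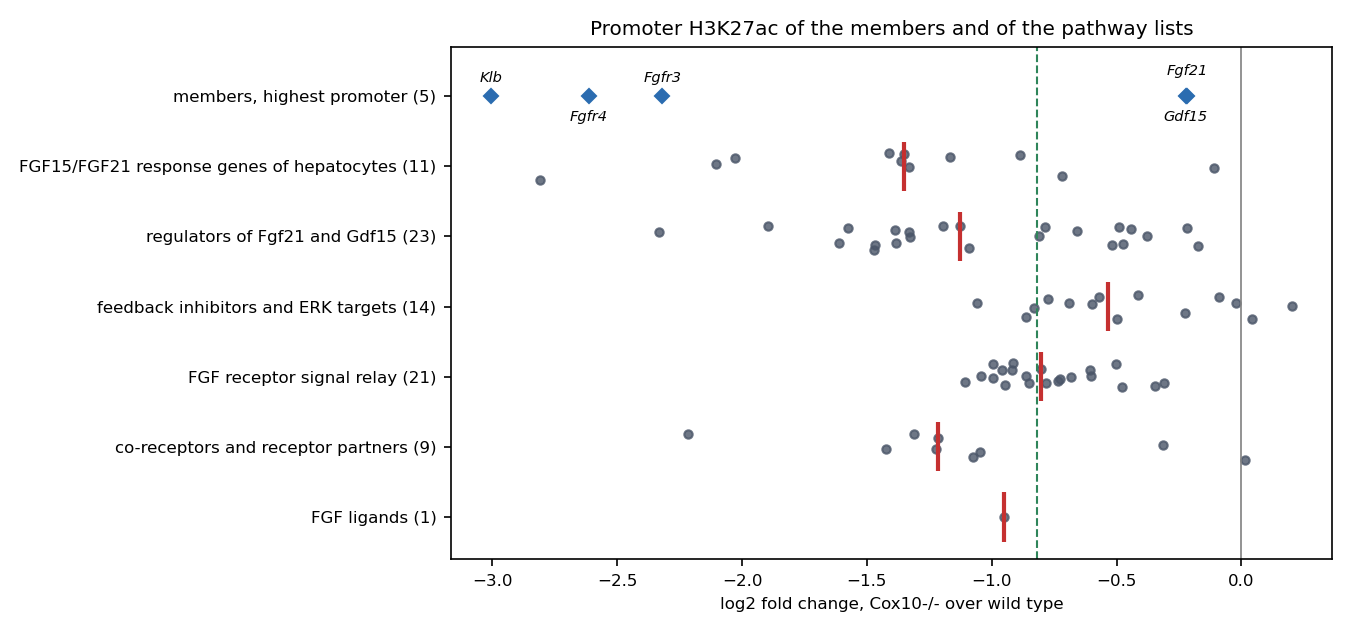
Log2 fold change (Cox10-/- over wild type, limma) of the highest promoter region of each gene, by list, with the number of genes in brackets; red bars are list medians, diamonds the members without Fgfr2, the dashed line the median of all promoter genes (-0.82). Fgf21 and Gdf15, at -0.22 each, lie to the right of every list median, and Klb, Fgfr4 and Fgfr3 lie to the left of them. This depends on the region chosen. Gdf15 region 1 and Fgfr4 region 1, also promoter regions, were at -0.62 and -1.33, within the range of the list medians.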

How the data were processed

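Of 12 samples, 6 are H3K27ac libraries (3 a genotype) and 6 are inputs, which were not used here. The authors deposited 1 table of signal per region, as normalised reads. Multiplying a library by its own size factor turned 100% of its values into whole reads, within 0.01 reads. The labels' protocols record spike-in chromatin. How these factors arose, from spike-in reads or otherwise, is not given in the sources. Per the submitters' processing notes the build was mm10 and the tools included BWA (0.7.5), MACS and deepTools (3.5.0). Region annotation, log2 fold changes and p-values in the same table are the authors' own, as deposited. Coordinates are as that table gives them. Dropping 59 repeats left 36387 regions. Chromosome 16 was not analysed here.

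On log2(value + 1), limma 3.58.1 (R 4.3.3, variance trend, no filter, no block) compared 3 with 3 libraries over all regions. Regions with a Benjamini-Hochberg adjusted p below 0.05 were called. Fold changes are on that scale, which understates the change of weak regions. The difference between adjacent regions was fitted the same way, a test added after the values were seen. The fits were tested on simulated data. Between replicates the chi-square statistic of the reads, divided by its degrees of freedom, was 1.06 to 1.19, and across genotypes 10.2 to 10.6. The members and lists were chosen with earlier results of these data known. Named were all members, up to 3 genes per list and direction by adjusted p, and the 3 nearest profiles, and some list genes that the rule picks are not reported here. Alternatives were other pseudocounts, a filter, centring, count tests of the reads (edgeR 4.0.16, DESeq2 1.42.0), the authors' comparison, a block, a threshold of 0.01 and leaving out each library.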

Additional observations from a re-analysis of the deposited data

How the results depend on the processing

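The scale decided the direction of weakly changed regions, and no other alternative run on single regions reversed a member. The cause was not tested. Centred libraries gave 11800 regions lower and 12224 higher, and edgeR with TMM 12164 and 12145. For member regions these were 10 and 8, and 11 and 8. Without Fgfr2 they were 10 and 5, and 11 and 5. For the 78 list genes they were 21 and 38 under both. Centring and TMM turned Fgf21 region 1 to 0.83 and 0.83, Gdf15 region 1 to 0.44 and 0.43 and region 2 to 0.83 and 0.83. Fgfr2 regions 2, 5 and 6 turned to 0.18, 0.19 and 0.22 (TMM 0.17, 0.18 and 0.18), and Fgfr4 regions 3 to 6 to 0.25, 0.37, 0.29 and 0.025 (TMM 0.24, 0.38, 0.27 and 0.0091). Among list genes Fgf20, Sdc1, Pik3r1, Dusp6 and Ier2 turned to 0.10, 0.0072, 0.012, 0.22 and 0.45 (TMM 0.088, 0.0086, 0.014, 0.22 and 0.45).

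Summed signal scaled to the median region had log2 ratios of 1.23 for Fgf21, 0.82 for Gdf15, -1.65 for Klb, 0.83 for Fgfr2, -1.39 for Fgfr3 and -0.40 for Fgfr4. Promoter and other regions alone gave -0.41 and 0.28 for Gdf15, -3.06 and -2.44 for Klb, -0.87 and 0.25 for Fgfr2, -2.33 and -2.64 for Fgfr3 and -2.02 and -0.91 for Fgfr4. Leaving out each library gave 20 to 21 member regions lower and 4 to 5 higher, and 0 to 1 list genes higher. The replicate block left the counts at 21 lower and 5 higher of 27 regions. Same-numbered libraries did not deviate together (correlations of -0.001 to 0.007). Replicates differed little beyond counting noise (chi-square per degree of freedom 1.06 to 1.19), so this check cannot tell whether the numbers pair them. Fgf21 and the distal regions rest on few reads, which limits their precision.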

Other observations

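The surroundings of Gdf15 were read after its upstream region was seen to be higher. Within 30 kb of the gene 13 regions carried another name, of which 11 were lower and 1 higher (limma, adjusted p under 0.05, against 87.2% and 4.46% of all regions). The higher one, named for Pgpep1 and 13.0 kb upstream of Gdf15 (chromosome 8, 70645473 to 70645838), was at 41.3 ± 9.69 normalised reads (SD, n = 3) in wild type and at 63.7 ± 3.57 in Cox10-/-. Its log2 fold change was 0.64 (SE 0.18, limma adjusted p = 0.00072). The next region, 13.6 kb away, was at 0.052 (adjusted p = 0.66), and those farther out were lower, up to 2.68-fold. Around Klb all 4 neighbouring regions were lower, and the 1 neighbour of Fgf21, named for Izumo1, was 1.29-fold lower. The 4 regions within 30 kb of Fgfr1, the nearest at 21.3 kb, carried other names and were lower.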
